A study of Mus musculus with 6 samples.

Results

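The 41 genes described here encode the enzymes of glycolysis and of the pentose phosphate pathway, the enzymes that set the level of fructose 2,6-bisphosphate, lactate handling proteins, and members and targets of the hypoxia-inducible factor (HIF) pathway. They were taken by gene symbol from a table of 20312 genes, and all 41 were present. RNA had been sequenced from the intestine of mice of strain 129 at 5 months of age. The control group was 3 libraries of genotype Apc min/+, and the knockout group was 3 libraries of genotype APC min/+ ; Sirt7 -/-. Both groups therefore carried the Apc min allele, a truncating allele of the Wnt pathway inhibitor Apc that gives rise to intestinal adenomas, and there was no Apc wild-type group. The labels did not give the segment of intestine, the share of adenoma in the sample, or whether libraries of the same genotype were from different mice, so the p-values measure the spread between these libraries, which may be technical.

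Glycolysis converts glucose to pyruvate, and lactate dehydrogenase can convert the pyruvate to lactate, which leaves the cell through monocarboxylate transporters. Hexokinase traps glucose as glucose 6-phosphate, which can also enter the pentose phosphate pathway, a source of NADPH and of ribose for nucleotides. When oxygen is low, the prolyl hydroxylases encoded by Egln1, Egln2 and Egln3 no longer mark the HIF alpha subunits for destruction, and HIF dimers bind the core sequence RCGTG (R is A or G) and raise the transcription of many glycolytic genes. SIRT7 is a nuclear deacylase of the sirtuin family, and the comparison addressed how its loss alters expression in Apc mutant intestine. The gut epithelium is known for a steep oxygen gradient between the vascular side and the lumen.

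The HIF core was looked up in promoter windows, because many of the 41 genes are textbook HIF targets. Windows ran from 250 bases before to 50 bases after each RefSeq transcription start (GRCm38.p6), and ACGTG and GCGTG were searched on both strands, counting overlapping matches. A window was found for 39 of the 41 genes, and 34 of these (87.2%) held at least 1 match. For reference, 46.7% of 27025 genes with a window, and 43.8% of all 32851 windows, held a match. The stricter ACGTG was in 23 of the 39 genes and in 21.8% of all genes. A match is a description of letters, and no comparison of base composition was made. The 6 windows below belong to the genes on which the results turn: 4 genes that rose in knockout (Hk2, Bnip3, Ankrd37 and Egln3) and 2 that fell (Pfkfb3 and Ldha). Capitals mark ACGTG or GCGTG, or their reverse complements CACGT and CACGC. Each is written 5′ to 3′ on the strand of its gene. Where a gene had more than 1 start, the window with the most matches was printed. A gene was counted above if any of its windows held a match, which favours genes with several starts. The other Pfkfb3 window held 1 ACGTG and the other Ldha window held 2 GCGTG, and neither held CACGTG.
Hk2 (chr6:82774405-82774704, minus strand): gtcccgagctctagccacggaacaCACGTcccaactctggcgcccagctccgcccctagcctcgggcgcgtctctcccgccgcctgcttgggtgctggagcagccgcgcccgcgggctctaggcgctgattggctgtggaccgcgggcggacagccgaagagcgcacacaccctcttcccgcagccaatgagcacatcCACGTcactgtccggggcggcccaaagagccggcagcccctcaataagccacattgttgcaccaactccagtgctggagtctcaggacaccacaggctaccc
Bnip3 (chr7:138909457-138909756, minus strand): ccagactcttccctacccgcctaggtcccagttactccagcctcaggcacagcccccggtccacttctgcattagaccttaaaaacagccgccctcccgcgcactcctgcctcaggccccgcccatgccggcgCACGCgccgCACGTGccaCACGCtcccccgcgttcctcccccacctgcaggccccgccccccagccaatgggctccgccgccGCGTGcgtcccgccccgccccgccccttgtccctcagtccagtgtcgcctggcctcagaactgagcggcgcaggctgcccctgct
Ankrd37 (chr8:45999801-46000100, minus strand): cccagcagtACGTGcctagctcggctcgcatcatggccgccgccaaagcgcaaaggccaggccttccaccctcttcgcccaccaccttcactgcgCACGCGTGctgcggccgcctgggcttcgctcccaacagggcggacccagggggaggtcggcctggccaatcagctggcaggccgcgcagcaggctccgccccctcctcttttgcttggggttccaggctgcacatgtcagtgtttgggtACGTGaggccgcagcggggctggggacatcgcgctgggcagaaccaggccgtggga
Egln3 (chr12:54203825-54204124, minus strand): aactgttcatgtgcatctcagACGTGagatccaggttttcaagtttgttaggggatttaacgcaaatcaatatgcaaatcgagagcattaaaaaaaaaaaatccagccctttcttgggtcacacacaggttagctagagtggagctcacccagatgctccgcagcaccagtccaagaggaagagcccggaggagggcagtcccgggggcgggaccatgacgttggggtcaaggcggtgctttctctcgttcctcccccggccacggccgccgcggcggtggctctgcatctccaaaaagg
Pfkfb3 (chr2:11502041-11502340, minus strand, 1 of 2 listed starts): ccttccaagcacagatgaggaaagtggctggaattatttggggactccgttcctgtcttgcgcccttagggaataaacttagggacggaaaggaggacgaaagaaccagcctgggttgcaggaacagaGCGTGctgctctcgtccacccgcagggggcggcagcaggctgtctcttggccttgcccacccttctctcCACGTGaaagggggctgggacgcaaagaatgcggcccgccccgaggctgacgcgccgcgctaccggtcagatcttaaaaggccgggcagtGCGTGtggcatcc
Ldha (chr7:46845554-46845853, plus strand, 1 of 2 listed starts): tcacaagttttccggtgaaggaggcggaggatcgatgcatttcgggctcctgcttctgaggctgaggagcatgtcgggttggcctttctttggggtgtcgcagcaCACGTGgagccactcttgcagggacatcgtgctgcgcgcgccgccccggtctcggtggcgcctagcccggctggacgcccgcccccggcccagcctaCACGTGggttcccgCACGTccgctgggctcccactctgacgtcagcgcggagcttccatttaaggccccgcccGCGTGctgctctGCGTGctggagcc

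By direction, a match to ACGTG or GCGTG was present in 12 of the 12 genes with a window that rose, in 12 of the 17 that fell and in 10 of the 10 that did not pass the test, so the 5 genes with a window and no match were all among those that fell. ACGTG was present in 10 of the 12 genes that rose, 7 of the 17 that fell and 6 of the 10 that did not pass. These counts were not tested. Of the 6 windows printed, those of Bnip3, Pfkfb3 and Ldha hold the palindrome CACGTG, which reads ACGTG on both strands.

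Depth ranged from 24987313 to 29603348 recovered reads per library. Values are normalised read counts, that is, reads divided by 1 size factor per library, and are not scaled by gene length unless given per kilobase of exon. Means are given ± SD over the 3 libraries of a group, and log2 differences (knockout minus control, on log2 of the value plus 1) ± SE. Sirt7 was checked first. It stood at 2157, 2118 and 2244 in the control libraries and at 240.4, 224 and 219 in the knockout libraries, so that 10.5% was left (log2 difference -3.25 ± 0.07, limma adjusted p = 2.96e-20). Marker genes of several cell types also differed between the groups. The summed level of 12 absorptive enterocyte markers ranged from 1639207 to 1663217 in control and from 764226 to 798214 in knockout, and 11 of the 12 fell and 1 rose. The sum of 8 cycling cell markers ranged from 6909 to 7555 and from 14850 to 15932, and 8 of 8 rose. Markers of fibroblasts rose (6 of 6, from 7744 to 7999 in control and from 13851 to 14679 in knockout). The 7 gastric gland markers summed to between 23.5 and 31.2 in control, with Lipf at 0 in all 3 libraries, and to between 21585 and 23084 in knockout. The 7 pancreatic acinar markers summed to between 220.2 and 235 in control and to between 1887 and 2378 in knockout. The part of these shifts in the results below was not tested, and in bulk tissue fewer cells of a type and less RNA per cell cannot be told apart. Since the segment of intestine and the share of adenoma were not given, a difference in the tissue sampled cannot be told apart from the genotype either.

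The 41 genes split in both directions. All 41 reached a normalised count of 10 in 3 or more libraries and were tested with the other genes, 16600 in all. By limma, 13 rose and 17 fell in knockout at an adjusted p under 0.05, and 11 did not pass. The background was high, since 62.5% of all tested genes passed, 31.6% higher and 30.9% lower. The share of the 41 genes that passed, 73.2%, should be read against it. Control and knockout libraries did not overlap for 34 of the 41 genes, 12 higher and 22 lower in knockout, against 66.5% of all tested genes. Changes of at least 1.5-fold were seen in 3 genes that rose (Hk1, Hk2 and Pfkl) and 4 that fell (Pfkfb3, Pfkfb4, Fbp1 and Eno2). Among all tested genes such rises made up 17.2% and such falls 14%. The median log2 fold change of the 41 genes was -0.11, and that of all tested genes was 0.01. The median size of change, regardless of sign, was 0.26 for the 41 genes and 0.39 for all tested genes, so the typical member moved less than the typical tested gene. Members and other genes were not matched for expression level. With a filter at 50 instead of 10, 9484 of 13586 tested genes and 30 of 40 members passed. In the authors' deposited table, 29 of the 41 genes had an adjusted p under 0.05, with 12 higher and 17 lower, and 0 had a sign opposite to that found here.

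**Figure D1:**
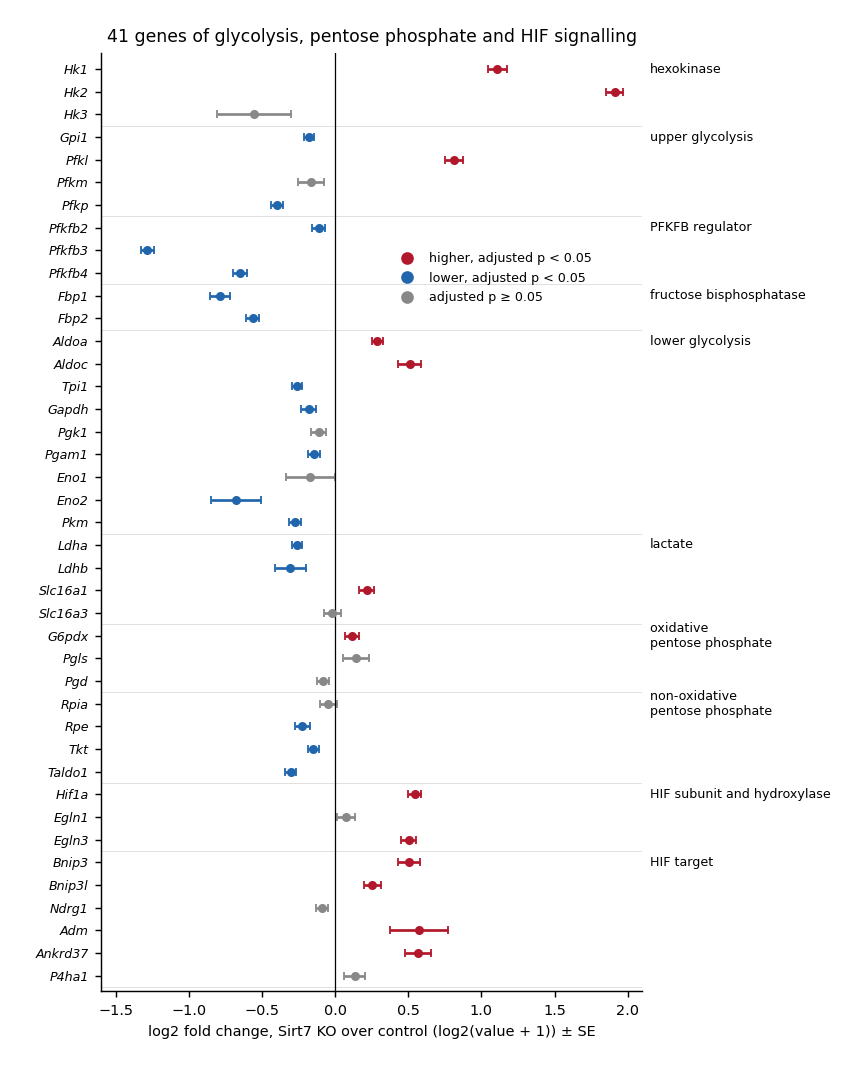
Log2 fold change (knockout minus control, with its SE) of each of the 41 genes on the horizontal axis, grouped by role, in red where it rose, blue where it fell and grey where it did not pass. Hk2 and Hk1 lie farthest to the right (1.91 and 1.11) and Pfkfb3 farthest to the left (-1.28), while most enzymes of lower glycolysis and of the pentose phosphate pathway lie within 0.31 of zero.

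Hexokinases Hk1 and Hk2, which perform the first step of glucose use, gave the largest rises of the set. Hk2, the inducible hexokinase of muscle and of many tumours (chromosome 6, 82725025 to 82774454, minus strand, GRCm38), stood at 879, 810.1 and 893 in the control libraries and at 3416, 3122 and 3187 in the knockout libraries. Every knockout library was far above every control library. The mean rose from 861 ± 44.4 to 3241 ± 154 (SD, n = 3), a log2 fold change of 1.91 ± 0.06 (limma adjusted p = 5.4e-18). Hk1, the broadly expressed hexokinase bound to mitochondria (chromosome 10, 62268855 to 62379908, minus strand), stood at 596, 589.9 and 593 in control and at 1310.2, 1211 and 1322 in knockout. The control libraries were almost equal and the groups were well apart, with a log2 fold change of 1.11 ± 0.07 (limma adjusted p = 9.8e-13). An antisense transcript, Hk1os, overlaps an exon of Hk1, and since the strand setting of the counting was not given, its reads cannot be told apart from those of Hk1. Hk3, a hexokinase found mainly in myeloid cells, was low, at 63.0, 49.2 and 96.7 in control and at 47.7, 47.4 and 41.02 in knockout. The groups of Hk3 did not overlap, but its difference of -0.55 ± 0.25 did not pass (limma adjusted p = 0.063). It passed without the second control library, the lowest of that group (-0.77, limma adjusted p = 0.017), in edgeR (adjusted p = 0.049) and under quantile normalization (limma adjusted p = 0.021). The summed level of macrophage markers was lower in knockout, from 2106 to 2173 against 3213 to 3402 in control, and that of neutrophil markers was higher, from 264 to 325 against 82.6 to 90.6. Of 6 macrophage markers tested 3 fell and 0 rose, and of 5 neutrophil markers tested 4 rose and 0 fell. Their part in the level of Hk3 was not tested.

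**Figure D2:**
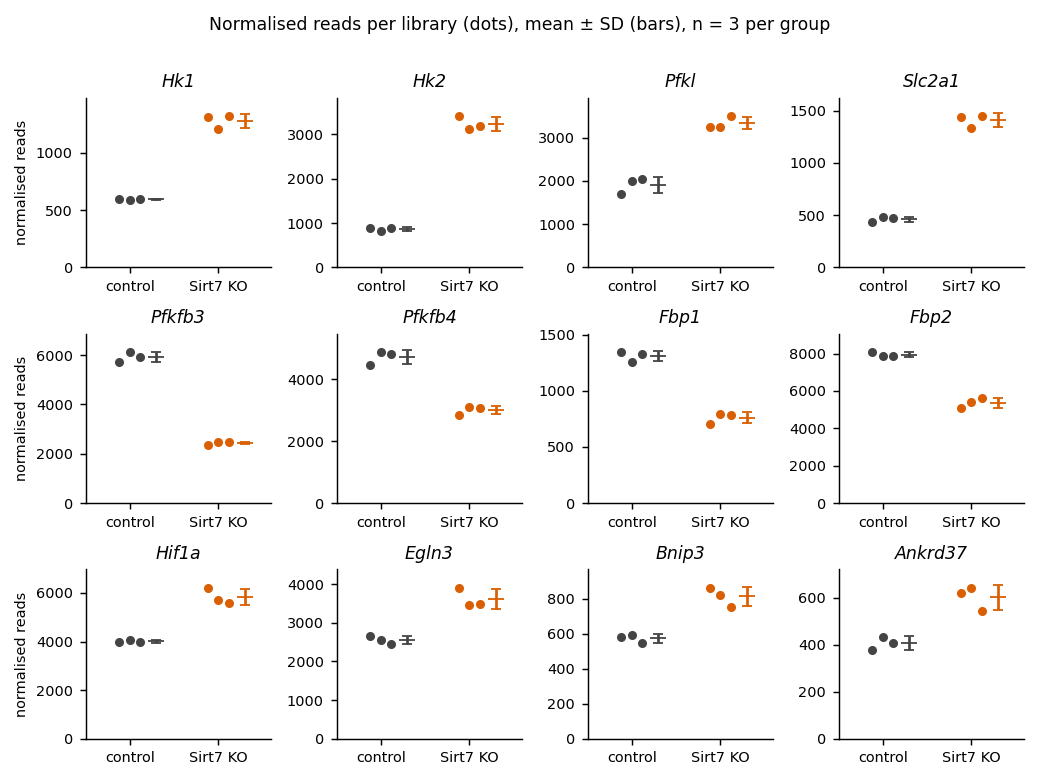
Normalised reads (vertical axes, linear from 0) in each of the 6 libraries, 1 dot a library, with the group mean ± SD beside them (n = 3), for 12 genes, of which Slc2a1 is outside the 41. Control and knockout dots do not overlap in any panel: Hk1, Hk2, Pfkl, Slc2a1, Hif1a, Egln3, Bnip3 and Ankrd37 are higher in knockout, and Pfkfb3, Pfkfb4, Fbp1 and Fbp2 are lower.

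Glucose enters the next steps through glucose 6-phosphate isomerase (Gpi1) and phosphofructokinase, the main control point of glycolysis. Gpi1 stood at 17389, 17872 and 18229 in control and at 15505, 15674 and 16099 in knockout and fell by 0.18 ± 0.04 on the log2 scale (limma adjusted p = 0.00016). It was 0.17 higher under quantile normalization and 0.08 higher when libraries were scaled to equal totals, so its direction rests on the scaling. The liver-type phosphofructokinase Pfkl (chromosome 10, 77986947 to 78010083, minus strand) stood at 1695, 1986 and 2031 in control and at 3248, 3252 and 3497 in knockout. It rose from 1904 ± 182 to 3332 ± 142, with no overlap (log2 difference 0.81 ± 0.06, limma adjusted p = 1.0e-10). The platelet-type Pfkp went the other way. Its values were 10682, 11015 and 10596 in control and 8092, 8505 and 7932 in knockout (log2 difference -0.40 ± 0.04, limma adjusted p = 7.0e-09). An exon of Pfkp overlaps Pitrm1, on the opposite strand. The muscle-type Pfkm was at 429 ± 5.55 in control and 382 ± 3.37 in knockout, a difference of -0.17 ± 0.09 that did not pass (limma adjusted p = 0.11). It passed under quantile normalization (-0.32, limma adjusted p = 0.0030) and stood 0.09 higher under total-count scaling.

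The PFKFB enzymes make and break down fructose 2,6-bisphosphate, the strongest known activator of phosphofructokinase. Of the PFKFB genes among the 41, 3 of 3 fell, against 30.9% of all tested genes. Pfkfb1, the remaining gene of the family and outside the 41, was low and overlapped between groups. It stood at 49.1 ± 13.2 in control and 71.6 ± 20.7 in knockout and did not pass (0.54 ± 0.26, limma adjusted p = 0.078). Pfkfb3 (chromosome 2, 11471433 to 11554077, minus strand), whose enzyme has the highest kinase activity of the family, stood at 5720.3, 6134 and 5934 in control and at 2366, 2463 and 2468 in knockout. This was the deepest fall among the 41 genes, from 5929.6 ± 207 to 2432 ± 57.7, with no overlap (log2 difference -1.28 ± 0.04, limma adjusted p = 8.4e-17). Pfkfb4 (chromosome 9, 108991778 to 109032228, plus strand) stood at 4441, 4883 and 4826 in control and at 2841, 3097 and 3076 in knockout. It fell by 0.65 ± 0.05 on the log2 scale (limma adjusted p = 6.5e-11), again without overlap. Both are textbook HIF targets, and the Pfkfb3 window printed above holds CACGTG. Any part of HIF in the levels of these 2 genes was not tested. Pfkfb2, the heart-type enzyme, moved little, from 4113 ± 39.7 to 3803 ± 167 (log2 difference -0.11 ± 0.04, limma adjusted p = 0.030). Its call was lost without the first or the second control library or the third knockout library (limma adjusted p = 0.068, 0.063 and 0.16), with TMM scaling (limma adjusted p = 0.067) and in edgeR (adjusted p = 0.053). Its sign turned under quantile normalization (0.05) and total-count scaling (0.14).

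Both fructose 1,6-bisphosphatases, which reverse the phosphofructokinase step in gluconeogenesis, fell. Fbp1, the liver and kidney form, stood at 1346, 1255 and 1322 in control and at 701, 791 and 780.2 in knockout. It fell from 1308 ± 47.5 to 757 ± 48.7 (log2 difference -0.79 ± 0.07, limma adjusted p = 4.1e-10). Fbp2, known as the muscle form, stood at 8094, 7859 and 7858 in control and at 5082, 5406 and 5616 in knockout (log2 difference -0.57 ± 0.04, limma adjusted p = 7.3e-11). Neither gene overlapped between groups. Fbp2 was the more abundant of the pair, with a control level of 5403 per kilobase of exon against 768 for Fbp1. The pair lies side by side on chromosome 13, Fbp2 from 62836877 to 62858422 and Fbp1 from 62864753 to 62888282, both on the minus strand.

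Lower glycolysis, from aldolase to pyruvate kinase, changed by small amounts. Of its 9 genes 2 rose, 5 fell and 2 did not pass, where 31.6% of all tested genes rose and 30.9% fell. Aldoa and Aldoc, enzymes that split fructose 1,6-bisphosphate, were the ones that rose: Aldoa from 12036 ± 293 to 14698 ± 427 (log2 difference 0.29 ± 0.04, limma adjusted p = 5.3e-07) and Aldoc from 606 ± 47.7 to 861 ± 54.4 (0.51 ± 0.08, limma adjusted p = 4.8e-06). Triosephosphate isomerase Tpi1 fell from 27834 ± 306 to 23227 ± 759 (-0.26 ± 0.04, limma adjusted p = 8.4e-07). Phosphoglycerate mutase Pgam1 fell from 7929 ± 112 to 7168 ± 168 (-0.15 ± 0.04, limma adjusted p = 0.0023). Pyruvate kinase Pkm, which makes pyruvate and ATP at the last step, fell from 43486 ± 1979 to 35904 ± 1649 (-0.28 ± 0.04, limma adjusted p = 2.2e-06). These 3 falls depended on the scaling: under quantile normalization Tpi1, Pgam1 and Pkm stood 0.15, 0.13 and 0.04 higher in knockout, and under total-count scaling Pgam1 stood 0.11 higher while Tpi1 and Pkm were at -0.01 and -0.02. The neuronal enolase Eno2 was low, at 137, 140.0 and 125 in control and at 78.3, 98.8 and 74.4 in knockout. Its groups did not overlap (log2 difference -0.68 ± 0.17, limma adjusted p = 0.0017). Summed markers of enteric neurons and glia ranged from 732 to 805 in control and from 699.8 to 811 in knockout, so the sums overlapped, while 4 of the 8 markers fell and 1 rose, with a median log2 difference of -0.57. Their part in the level of Eno2 was not tested.

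Gapdh, Pgk1 and Eno1 have near-identical copies elsewhere in the genome, and their own values are uncertain. Counting a copy as a transcript with at least 95% identity over at least 300 bases, Gapdh, the glyceraldehyde 3-phosphate dehydrogenase often used as a reference gene, has 77 annotated copies, of which 49 are in the table. Gapdh itself stood at 1818, 1888 and 1943 in control and at 1727, 1664 and 1587 in knockout, with no overlap (log2 difference -0.18 ± 0.05, limma adjusted p = 0.0051). It held only 2.81% of the reads of the gene and its copies in control. The copy Gm10566 alone stood at 24164, 25438 and 25863 in control and at 20666, 21341 and 21959.6 in knockout. Gapdh with its copies summed to 66917 ± 862 in control and 59513 ± 1966 in knockout, a log2 difference of -0.17 that is close to that of Gapdh alone. Under total-count scaling Gapdh stood 0.07 higher in knockout, and under quantile normalization it was at -0.12 and did not pass (limma adjusted p = 0.065).

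The other 2 copied genes gave different pictures alone and summed. Phosphoglycerate kinase Pgk1 was at 2062 ± 68.0 in control and 1905 ± 50.2 in knockout (log2 difference -0.11 ± 0.05, limma adjusted p = 0.055). Its copy Pgk1-rs7 took most of the reads, and the sum of Pgk1 and its copies in the table was 17953 ± 301 in control and 17709 ± 243 in knockout, overlapping, at a log2 difference of -0.02. Enolase Eno1 was listed at only 118 ± 9.49 in control and 105 ± 12.6 in knockout (-0.17 ± 0.17, limma adjusted p = 0.39). Its copy Gm4735 stood at 2805, 3148 and 3152 in control and at 2233, 1979 and 2095 in knockout. The Eno1 sum fell without overlap from 3191 ± 189 to 2248 ± 143, a log2 difference of -0.51. Bnip3 also has a copy in the table, Gm16439, which moved the same way as the gene (201 to 319), and the sum was 0.55 higher on the log2 scale. Gpi1, Pgam1, Ldha and Ldhb each held at least 95.8% of the control reads of the gene and its copy in the table.

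**Figure D3:**
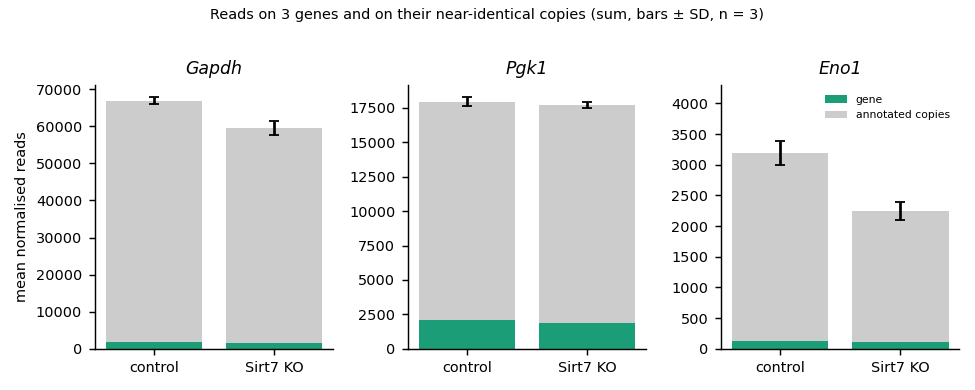
Mean normalised reads per group of Gapdh, Pgk1 and Eno1 (lower, green part of each bar) and of their near-identical copies in the table (grey part), with the SD of the sum over 3 libraries. The copies hold most of each bar, and the Gapdh and Eno1 sums are lower in knockout while the Pgk1 sums overlap.

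Ldha, the lactate dehydrogenase subunit that favours the making of lactate, was the more abundant of the 2 subunits in both groups. It stood at 47128, 49419 and 50851 in control and at 40662, 41041 and 41237 in knockout. The groups did not overlap, and the log2 fold change was -0.26 ± 0.03 (limma adjusted p = 6.1e-07), but it was 0.17 higher under quantile normalization and at -0.01 under total-count scaling. Ldhb, the subunit that favours lactate oxidation, fell from 369.8 ± 35.3 to 298 ± 10.9 (-0.31 ± 0.10, limma adjusted p = 0.013), and this call was lost without the first control library (-0.25, limma adjusted p = 0.065). The lactate carrier Slc16a1 (MCT1) rose from 2239.8 ± 62.9 to 2602 ± 118 (0.22 ± 0.05, limma adjusted p = 0.00065). Slc16a3 (MCT4), a carrier of lactate export and a HIF target, overlapped between groups at 2198 ± 192 and 2165 ± 105 (-0.02 ± 0.06, limma adjusted p = 0.80). It stood higher in knockout under quantile normalization (0.06) and total-count scaling (0.24), without the third control library (0.05) and without the second knockout library (0.02), and passed only under total-count scaling (limma adjusted p = 0.0016).

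Changes in the pentose phosphate pathway were small. Of its 7 genes 1 rose, 3 fell and 3 did not pass, and the range of log2 fold changes was -0.30 to 0.14. The share that passed, 57.1%, was below the 62.5% of all tested genes. G6pdx, glucose 6-phosphate dehydrogenase, which commits glucose 6-phosphate to the oxidative branch (chromosome X, 74409483 to 74429194, minus strand), stood at 2639, 2771 and 2763 in control and at 2930.2, 3067 and 2837 in knockout. The groups did not overlap, and the rise was 0.11 ± 0.05 on the log2 scale (limma adjusted p = 0.045). That call rests on single libraries: without control 1, 2 or 3 the limma adjusted p was 0.14, 0.065 or 0.0501, and without knockout 1 or 2 it was 0.068 or 0.21. It was also lost in DESeq2 (adjusted p = 0.059) and with no filter on low values (limma adjusted p = 0.055). The other oxidative genes, Pgls (856 ± 120.4 to 940.3 ± 76.1) and Pgd (13631 ± 169 to 12868 ± 524), did not pass (limma adjusted p = 0.17 and 0.060). Pgls passed without the first control library (0.22, limma adjusted p = 0.045), and Pgd passed without the third knockout library (-0.12, limma adjusted p = 0.020).

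In the non-oxidative branch, which interconverts sugar phosphates, transaldolase Taldo1 fell from 11494 ± 328 to 9309.5 ± 205 (-0.30 ± 0.04, limma adjusted p = 3.2e-07), ribulose-phosphate epimerase Rpe from 2229 ± 102 to 1905 ± 41.1 (-0.23 ± 0.05, limma adjusted p = 0.00055) and transketolase Tkt from 13563 ± 328 to 12216 ± 151 (-0.15 ± 0.04, limma adjusted p = 0.0010). Ribose-phosphate isomerase Rpia overlapped, at 1282 ± 30.2 and 1241 ± 64.7. None of these falls was independent of the scaling, since under total-count scaling Rpe and Tkt stood 0.03 and 0.10 higher and Taldo1 was at -0.05, and under quantile normalization Tkt stood 0.07 higher, as did Pgd by 0.17.

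Of the 9 members grouped by role under the HIF pathway, 6 rose, 0 fell and 3 did not pass. Their median log2 difference was 0.50 against 0.01 for all tested genes. The count of 0 holds for this grouping only. Members named above as HIF targets but counted with other roles were Pfkfb3 and Pfkfb4, which fell, and Slc16a3, which did not pass. HIF is also known to raise many glycolytic genes. Of the 20 members counted under glycolysis and lactate, Slc16a3 among them, 6 rose, 9 fell and 5 did not pass. Of the 9 members under the HIF pathway, the share that passed, 66.7%, was near the 62.5% of all tested genes, of which 31.6% were higher and 30.9% lower. Hif1a, the oxygen-regulated alpha subunit (chromosome 12, 73901375 to 73947530, plus strand), stood at 3967, 4075 and 3972 in control and at 6221, 5696 and 5601 in knockout. Every knockout library was above every control library (log2 difference 0.54 ± 0.05, limma adjusted p = 3.9e-10). Exons of Hif1a overlap the transcripts Gm49321 and Gm15283. The prolyl hydroxylase Egln3, itself a HIF target, stood at 2648, 2549 and 2456 in control and at 3914, 3459 and 3483 in knockout (0.50 ± 0.05, limma adjusted p = 1.6e-08), again with no overlap. Its relative Egln1 was at 1318 ± 70.9 in control and 1389.6 ± 87.5 in knockout and did not pass (limma adjusted p = 0.30).

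Among the HIF targets, the mitophagy receptor Bnip3 stood at 584, 592 and 547 in control and at 865, 825 and 754 in knockout (0.50 ± 0.08, limma adjusted p = 4.4e-06). Ankrd37, an ankyrin repeat protein, stood at 376, 434 and 409 in control and at 621, 643 and 542 in knockout (0.57 ± 0.09, limma adjusted p = 9.3e-06). Neither overlapped between groups, though on the opposite strand exons of Ankrd37 overlap Lrp2bp and Ufsp2, and an exon of Bnip3 overlaps Gm45507. Bnip3l, a second mitophagy receptor, rose less, from 1370.2 ± 67.3 to 1632 ± 81.3 (0.25 ± 0.06, limma adjusted p = 0.00065). The peptide hormone Adm was low and variable, at 73.3, 106 and 78.6 in control and at 142, 96.8 and 148 in knockout. The second knockout library lay below the second control library, so the groups overlapped although the gene passed (0.57 ± 0.20, limma adjusted p = 0.015). The Adm call was lost without the first control library or the first or the third knockout library (limma adjusted p = 0.059, 0.068 and 0.085) and under quantile normalization (limma adjusted p = 0.082). Ndrg1 (3778 ± 106 to 3547 ± 42.8) and the collagen prolyl 4-hydroxylase P4ha1 (778 ± 49.7 to 852 ± 41.7) did not pass (limma adjusted p = 0.075 and 0.11). Without adjustment for multiple tests, 1 of the 9 genes, Ndrg1, was lower in limma at the 0.05 level, while edgeR and DESeq2 called 0 of the 9 lower. Ndrg1 turned to 0.06 under quantile normalization and to 0.16 under total-count scaling. Endothelial markers summed to between 2482 and 2588 in control and to between 3236 and 3491 in knockout, and of these 6 markers 4 rose and 1 fell. The neutrophil and fibroblast sums rose as given above. The part of these markers in the HIF values was not tested.

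Within enzyme families, most isozyme shares did not overlap between the groups. For each library the share of a gene in the summed level per kilobase of its family was computed, a measure that library scaling cannot change. Of 23 shares tested, 20 did not overlap between groups. Among all tested genes, 66.5% did not overlap by their own values, a different measure. Shares within a family add up to the whole, so a rise of 1 gene lowers the others and the 20 are not separate results. The enolase shares used Eno1 without its copies, which is 3.71% of the control reads of the gene and its copies. Each of these had an exact two-sided permutation p of 0.1, the smallest that 3 against 3 libraries allow, and 0.115 after Benjamini-Hochberg adjustment over the 23, so none could pass. Hkdc1, a hexokinase-like enzyme outside the 41 genes, made up most of the hexokinase sum and is the neighbour of Hk1 on chromosome 10 (62383137 to 62422491). Its share was 91.6%, 92.5% and 91.8% in control and 73.9%, 76.2% and 75.6% in knockout. The share of Hk2 was 5.22%, 4.67% and 4.90% in control and 20.05%, 18.3% and 18.5% in knockout, and that of Hk1 went from 2.38% ± 0.1001 to 5.23% ± 0.2401. The hexokinase sum itself was 2927 ± 119 per kilobase in control and 2871 ± 19.9 in knockout, and these overlapped. Unlike the shares, such sums depend on how the libraries are scaled, and the knockout libraries summed to 83.8% of the control libraries in the deposited values.

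Among the phosphofructokinases, Pfkl took 21.6%, 23.8% and 24.8% of the sum in control and 40.4%, 39.4% and 42.6% in knockout, while Pfkp went from 66.03% ± 1.57 to 49.9% ± 1.601 and Pfkm from 10.6% ± 0.269 to 9.35% ± 0.191. The sum was 1217 ± 35.4 in control and 1224 ± 15.9 in knockout per kilobase, with overlap, at the deposited scaling. This sum also rests on the exonic lengths used. They were 13401 bases for Pfkp, whose longest coding transcript has 4145, and 6675 for Pfkl, whose longest has 3730. Undivided by length, Pfkp fell from 10764 to 8176 and Pfkl rose from 1904 to 3332, so the overlap of the sums is not shown for other lengths. In the PFKFB family the sum was lower in knockout, 1480.1 ± 24.2 against 2331 ± 68.2, the share of Pfkfb3 went from 33.6% ± 0.360 to 21.7% ± 0.392, that of Pfkfb2 from 24.3% ± 0.960 to 35.4% ± 1.62, and that of Pfkfb4 overlapped at 41.5% ± 0.929 and 41.6% ± 1.55. Among the prolyl hydroxylases Egln3 went from 50.1% ± 1.52 to 60.9% ± 0.443 and Egln2 from 30.7% ± 2.26 to 21.8% ± 0.399. Ldha overlapped, at 98.4% ± 0.202 and 98.5% ± 0.0441 of the Ldha and Ldhb sum. The fall in the enterocyte marker sum given above went with the fall of Hkdc1, and its part in these shares was not tested. In 2 families added after the data were seen, Pkm rose in share from 70.8% ± 0.479 to 74.7% ± 1.03 of the sum with Pklr, and Fbp1 fell in share from 12.4% ± 0.300 to 10.9% ± 0.308 of the sum with Fbp2.

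**Figure D4:**
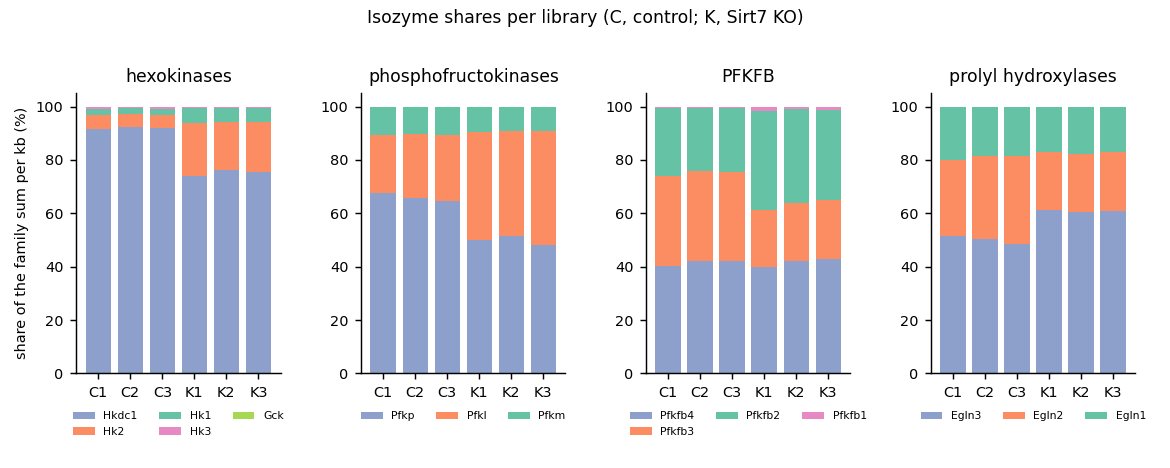
Share (%) of each gene in the summed level per kilobase of exon of its enzyme family, stacked, in each control (C1 to C3) and knockout (K1 to K3) library. Hk2 and Pfkl take larger shares in all 3 knockout libraries (means of 18.9% against 4.93%, and 40.8% against 23.4%), while that of Pfkfb4 overlaps between groups.

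Further genes of the same pathways were listed for context: 62 genes, of which 59 were in the table and tested and 3 (Tigar, Tktl1 and Tktl2) were not analysed here. Of the 59, 17 rose, 26 fell and 16 did not pass, and 72.9% passed in all, against the background of 62.5%. Among 4 glucose carriers 1 rose and 3 fell. The carrier Slc2a1 (GLUT1), a HIF target that feeds hexokinase, stood at 433, 478 and 472 in control and at 1443, 1329 and 1448 in knockout (1.61 ± 0.07, limma adjusted p = 4.4e-15). The enterocyte basolateral carrier Slc2a2 (GLUT2) fell from 12833 ± 170.3 to 6312 ± 394 (-1.03 ± 0.04, limma adjusted p = 2.2e-15), Slc2a3 from 144 ± 15.9 to 55.1 ± 13.9 (-1.40 ± 0.21, limma adjusted p = 3.2e-06) and Slc2a4 from 282 ± 35.8 to 211 ± 33.8 (-0.42 ± 0.13, limma adjusted p = 0.0089). Slc2a4 lost its call without the third control or the third knockout library (limma adjusted p = 0.060 and 0.066) and under total-count scaling (-0.17, limma adjusted p = 0.29). Summed markers fell for T cells (6 of 6, from 3186 to 3395 in control and from 946 to 1074 in knockout), B cells (5 of 5, from 4617 to 5238 and from 427 to 618) and adipocytes (5 of 5, from 656 to 696 and from 229 to 286). Their part in the carrier levels was not tested.

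Of 17 further glycolytic or gluconeogenic genes 12 fell and 1 rose, the low-count Pgam2, where 30.9% of all tested genes fell and 31.6% rose. The glycerol 3-phosphate shuttle enzymes Gpd1 and Gpd2 and the liver-type pyruvate kinase Pklr fell by 0.63, 0.66 and 0.56 on the log2 scale (limma adjusted p = 6.5e-12, 6.5e-13 and 9.9e-12). The phosphoribosyl pyrophosphate synthetase Prps2, which uses ribose 5-phosphate from the pentose phosphate pathway, rose from 454 ± 6.11 to 967 ± 61.4 (1.09 ± 0.07, limma adjusted p = 1.2e-11). The cycling cell marker sum rose as well, and its part in this was not tested. The pyruvate dehydrogenase kinases, which keep pyruvate out of the citric acid cycle, split: Pdk1, a HIF target, rose by 0.45 on the log2 scale, while Pdk2 and Pdk3 fell by 0.60 and 0.54.

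HIF partners and targets outside the 41 genes were also mixed. Epas1, the second HIF alpha subunit, fell from 3369.7 ± 54.0 to 2654 ± 130.1 (-0.35 ± 0.05, limma adjusted p = 1.2e-06), opposite in sign to Hif1a. The dimer partner Arnt overlapped between groups at 1393 ± 21.1 and 1418 ± 34.4. Arnt2 rose from 214 ± 20.02 to 327 ± 7.87, and the hydroxylases Egln2 and Hif1an fell by 0.27 and 0.20 on the log2 scale. Hif1an lost its call under quantile normalization (-0.11, limma adjusted p = 0.070) and turned to 0.05 under total-count scaling, where the falls of Epas1 (-0.09) and Egln2 (-0.02) no longer passed. Of 23 further HIF targets 12 rose and 6 fell, where 31.6% of all tested genes rose and 30.9% fell. The carbonic anhydrase Car12 rose from 148 ± 10.2 to 953 ± 72.2 (2.68 ± 0.10, limma adjusted p = 2.2e-16), the secreted glycoprotein Stc2 from 46.5 ± 6.25 to 297 ± 14.8 (2.65 ± 0.16, limma adjusted p = 2.1e-12) and the cytokine Mif from 499.6 ± 28.03 to 1223 ± 112 (1.29 ± 0.08, limma adjusted p = 1.1e-12). Vegfa, the best known angiogenic HIF target, fell from 5531 ± 163 to 3874 ± 56.5 (-0.51 ± 0.04, limma adjusted p = 3.0e-10), and the Myc antagonist Mxi1 from 5110.2 ± 304 to 2542 ± 178 (-1.01 ± 0.05, limma adjusted p = 2.4e-13).

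How the libraries are scaled decided the direction or the call of most small falls. Small rises such as those of Slc16a1, Bnip3l and Aldoa kept both, but only quantile normalization could well have undone a rise. There Adm lost its call (limma adjusted p = 0.082). In the deposited values the knockout libraries summed to 83.8% of the control libraries. Scaling all libraries to the same total moved the median gene up by 0.25 on the log2 scale, and then 24 of the 41 genes rose and 6 fell. That shift is about the same for every gene, so falls had to shrink or turn under it and rises could hardly be lost. Under quantile normalization 17 rose and 10 fell. The rises of Hk1, Hk2, Pfkl, Aldoa, Aldoc, Slc16a1, G6pdx, Hif1a, Egln3, Bnip3, Bnip3l and Ankrd37 and the falls of Pfkp, Pfkfb3, Pfkfb4, Fbp1, Fbp2 and Eno2 passed with the same sign under both. The falls of Gpi1, Pfkfb2, Tpi1, Gapdh, Pgam1, Pkm, Ldha, Tkt and Taldo1 passed with that sign under neither, and those of Ldhb and Rpe passed under quantile normalization alone.

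**Figure D5:**
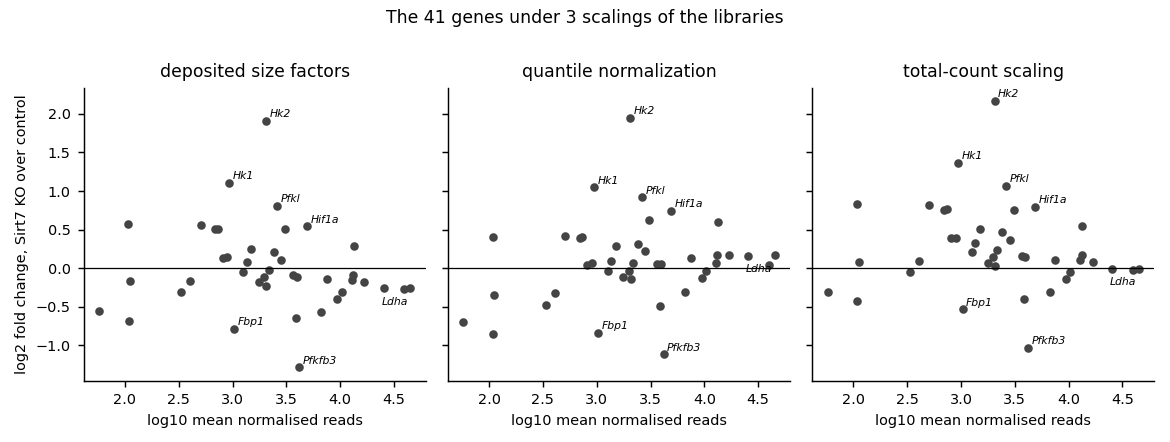
Log2 fold change of each of the 41 genes (vertical axes) against the log10 of its mean normalised reads (horizontal axes), under the deposited size factors, quantile normalization and total-count scaling. The large changes (Hk2, Hk1, Pfkl, Pfkfb3) lie on the same side of zero throughout, while abundant enzymes such as Ldha, at -0.26 with the deposited size factors, lie at 0.17 and -0.01.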

How the data were processed

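RNA-seq of mouse intestine was analysed in 3 control and 3 knockout libraries. Per the labels' protocols, RNA was taken up in Trizol and libraries were made with the TruSeq kit. Per the submitters' processing notes, TopHat2 2.1.1, HTSeq 0.6.1p1, DESeq2 and the build mm10 were used; roles, annotation and strand setting are not given in the sources used here. The authors' deposited table gives a signal per gene and library, the read count divided by a size factor. Per the file headers it also gives the authors' mean signal, log2 fold change with its SE, test statistic (a score with no fixed range), p-value and adjusted p-value. Of 20312 rows, 23 with a date or repeated name stayed unnamed. In each library 100% of values were whole multiples of 1 step within 0.01, so whole reads were recovered, 24987313 to 29603348 a library. No pair of same-genotype libraries agreed within sampling noise: the chi-square of their counts averaged 3.73 to 6.92 a gene.

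Genes with a value of 10 or more in 3 or more libraries (16600) were tested with limma 3.58.1 in R 4.3.3 on log2(value + 1), a scale that understates changes of low genes, with genotype as the sole term, trend and robust estimation, and Benjamini-Hochberg adjustment over all tested genes; a gene rose or fell at an adjusted p under 0.05. The step was tested on simulated data. The members and lists were chosen with earlier results of these data known. Every member is named, with values for each library given for those past 1.5-fold, for Gapdh, Hif1a, Ldha and G6pdx, and, chosen after their values were seen, for Hk3, Gpi1, Pfkp, Fbp2, Egln3, Bnip3, Ankrd37 and Adm. Of other pathway genes, up to 4 a role that passed were named by smallest p, with Slc2a1, Epas1 and Vegfa. Hkdc1, Arnt, Pgam2 and Pfkfb1 were added after their values were seen. A gene that this rule takes, and the shares that rest on it, are not reported here. Isozyme shares used the GENCODE M21 exonic length and an exact permutation test. Positions are from the same annotation of GRCm38 (mm10). Alternatives were a replicate block, leaving out each library, a filter at 50 or none, a pseudocount of 0.5 or 10, TMM and quantile scaling, no robust estimation, and edgeR 4.0.16 and DESeq2 1.42.0 on recovered reads. Total-count scaling, 2 enzyme families and sums with near-identical copies were added after the data were seen.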

Additional observations from a re-analysis of the deposited data

How the results depend on the processing

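Of the 41 genes, 17 kept their direction and side of the threshold under all 17 alternatives and 32 did so when quantile normalization and total-count scaling were set aside. Under quantile normalization 10 members fell instead of 17, the median of the members was 0.066 instead of -0.11, and these log2 differences changed sign: Gpi1 0.17, Pfkfb2 0.047, Tpi1 0.15, Pgam1 0.13, Pkm 0.043, Ldha 0.17, Slc16a3 0.064, Pgd 0.17, Tkt 0.066 and Ndrg1 0.060. Under total-count scaling, chosen after the data were seen, 8248 genes rose and 2896 fell, 24 members rose and 6 fell, 29 other pathway genes rose and 17 fell, and the member median was 0.14. The signs that changed there were those of Gpi1 0.077, Pfkm 0.087, Pfkfb2 0.14, Gapdh 0.072, Pgk1 0.14, Pgam1 0.11, Eno1 0.080, Slc16a3 0.24, Pgd 0.17, Rpia 0.21, Rpe 0.029, Tkt 0.10, Ndrg1 0.16 and Hif1an 0.055. This scaling shifts the median of all tested genes from 0.01 to 0.26. The member median was -0.10 with TMM scaling, with the filter at 50 and in edgeR, and -0.13 to -0.093 on leaving out 1 library, where Slc16a3 ranged from -0.066 to 0.051; the cause was not tested.

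The replicate numbers did not pair the libraries: deviations of same-numbered libraries correlated at 0.0003, 0.04 and -0.01. With the replicate block 10402 genes passed instead of 10381, with 13 members higher and 18 lower. Pgk1 was the added member (limma adjusted p = 0.047), and it also passed without the third control library (limma adjusted p = 0.0498).

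Depth limits Hk3, Adm and Eno2, whose means lie under 150 reads, more than the other members. Eno1 also lies under 150, but most reads of the gene and its copies were on the copy Gm4735. Reads of genes with near-identical copies or overlapping exons cannot be assigned with certainty. Overlaps on the opposite strand not named above include those of G6pdx with Ikbkg, Aldoa with Fam57b, Tpi1 with Spsb2 and Rpe with Kansl1l.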
